A study of Mus musculus with 4 samples.

Results

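Thyroid hormone acts on the brain through a short chain of genes, and 5 of them were followed here across the cell classes of the mouse posterior substantia innominata, a basal forebrain region. They were Thra and Thrb, which encode the nuclear receptors for thyroid hormone, Trh, which encodes the precursor of thyrotropin-releasing hormone (TRH), Trhr, which encodes a receptor for that peptide, and Dio2, which encodes the deiodinase that makes active hormone. The 5 genes were chosen by name as the core of the axis, from 31899 genes listed in all 4 libraries. The rule that names them uses no measured value, but the choice was made with earlier results of these data known.

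The tissue came from wild-type mice aged 8 weeks for which the labels name no transgene and no treatment, with 2 libraries from males and 2 from females. Nuclei were released from the dissected region and profiled in droplets, and each count is 1 unique molecular identifier (UMI) of a gene in a nucleus. The study asked how neurons of this region differ between the sexes. The labels do not say that the libraries of 1 sex are different animals, so each p-value reflects the spread between samples alone, and that spread may be technical.

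As background, thyroid hormone reaches brain cells mainly as the prohormone T4, which transporters carry across membranes and DIO2 converts to the active form T3. T3 binds THRA and THRB, which sit on DNA with retinoid X receptors and switch between corepressors and coactivators. TRH drives the pituitary arm of this axis when it is made in the hypothalamus, and elsewhere in the brain it also serves as a neuropeptide that acts on TRHR through the G protein Gq.

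Nuclei were placed in 1 of 7 classes by raw UMIs of 2 marker genes each, such as Gad1 and Gad2 for GABAergic nuclei or Gja1 and Aqp4 for astrocytes. Of 38868 nuclei kept, 21926 fell in 1 class, with 13549 GABAergic, 4560 oligodendrocyte, 1073 glutamatergic, 819 astrocyte, 795 oligodendrocyte precursor (OPC), 754 microglia and 376 cholinergic nuclei. The class rule needs UMIs, and 19.6% and 20.8% of male nuclei met no class, against 47.7% and 46.2% of female nuclei. Nuclei that met 2 or more classes were left out and made up 13.2% and 12.1% in male libraries against 5.16% and 5.54% in female libraries. Kept nuclei were deeper in male libraries, with medians of 10406 and 10015 UMIs, than in female libraries, whose medians were 4192 and 3806 UMIs. Software version, gene list and depth all changed together with sex, and their part in a male to female difference cannot be told apart from that of sex. Software version and gene list also differed between the females, with 55357 genes listed for female 1 and 32285 for female 2. Each male library listed 33696 genes. The labels' protocols name both v3 and v2 reagents for every library and do not tell which made it. Male and female libraries had 0 barcodes in common, while the males shared 23 and the females 35.

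Marker genes that the class rule did not use were highest in their own class in every library for 6 of the 7 classes. The GABAergic list of 3 genes was the exception, with a summed level of 568, 556, 354 and 654 CPM (counts scaled to a fixed total per class sum) in the astrocytes of male 1, male 2, female 1 and female 2, above 482, 492, 219 and 412 CPM in GABAergic nuclei. OPCs of female 1 and female 2, at 233 and 444 CPM, and oligodendrocytes of female 1, at 220 CPM, were also above the GABAergic nuclei of their library. Slc32a1, the vesicular GABA transporter, stood at 16.4 CPM in the GABAergic nuclei and 17.8 CPM in the microglia of female 1, and at 60.5 and 91.1 CPM in those of female 2. Dlx6os1, a forebrain GABAergic transcript, was highest in GABAergic nuclei in every library, at 275, 277, 88.1 and 146 CPM.

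Thra, the first receptor gene, was present in every class and was highest in oligodendrocytes. Thra (ENSMUSG00000058756) spans bases 98740638 to 98769006 on the plus strand of chromosome 11 (GRCm38). Its level is given as CPM of the summed UMIs of a class in a library, and the counts do not separate its hormone-binding isoform from the splice form that lacks binding. In oligodendrocytes Thra stood at 204, 216, 189 and 252 CPM in male 1, male 2, female 1 and female 2. The next class was astrocytes, at 130, 121, 118 and 160 CPM in the same libraries. Every library had a higher level in its oligodendrocytes than in any of its other classes.

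OPCs held 124, 121, 114 and 155 CPM of Thra, and GABAergic nuclei held 108, 106, 93.2 and 129 CPM. Glutamatergic nuclei averaged 96.5 ± 14.5 CPM, cholinergic nuclei 94.6 ± 9.95 CPM and microglia 90.2 ± 23.5 CPM (SD, n = 4 libraries each). Female 2 had the highest Thra level of the 4 libraries in 6 of the 7 classes, microglia being the exception. Compared pair by pair along this order, oligodendrocytes exceeded astrocytes by 0.73 ± 0.10 on the log2 scale (SE; adjusted p = 1.7e-07 by the quasi-likelihood test of edgeR, adjusted over all genes after Benjamini and Hochberg). Cholinergic nuclei exceeded microglia by 0.40 ± 0.12 (adjusted p = 0.00742, same test), and the other neighbours did not differ beyond their spread.

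Thrb, the other receptor gene, had a different order, with astrocytes, GABAergic nuclei, OPCs and glutamatergic nuclei high and cholinergic nuclei, microglia and oligodendrocytes low. Thrb (ENSMUSG00000021779) covers 377830 bases of chromosome 14, from 17660261 to 18038090 on the plus strand, and most of that length is intron, which nuclear RNA retains. Astrocytes held 398, 407, 403 and 441 CPM in male 1, male 2, female 1 and female 2. GABAergic nuclei held 326, 324, 369 and 323 CPM, and OPCs 314, 311, 325 and 255 CPM. Oligodendrocytes, at 109, 116, 152 and 129 CPM, lay below all 4 of these classes in every library.

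The step within this order lay between glutamatergic nuclei, at 296, 282, 234 and 226 CPM, and cholinergic nuclei, at 142, 149, 174 and 118 CPM. Every library showed it, and the fold was 0.79 ± 0.14 on the log2 scale (SE; edgeR adjusted p = 4.81e-05). No other pair of neighbours passed the test, including astrocytes over GABAergic nuclei at 0.27 ± 0.13 (edgeR adjusted p = 0.0748). Microglia held 90.6 and 108 CPM in male libraries against 160 and 198 CPM in female libraries, so the libraries of the sexes did not overlap there.

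**Figure D1:**
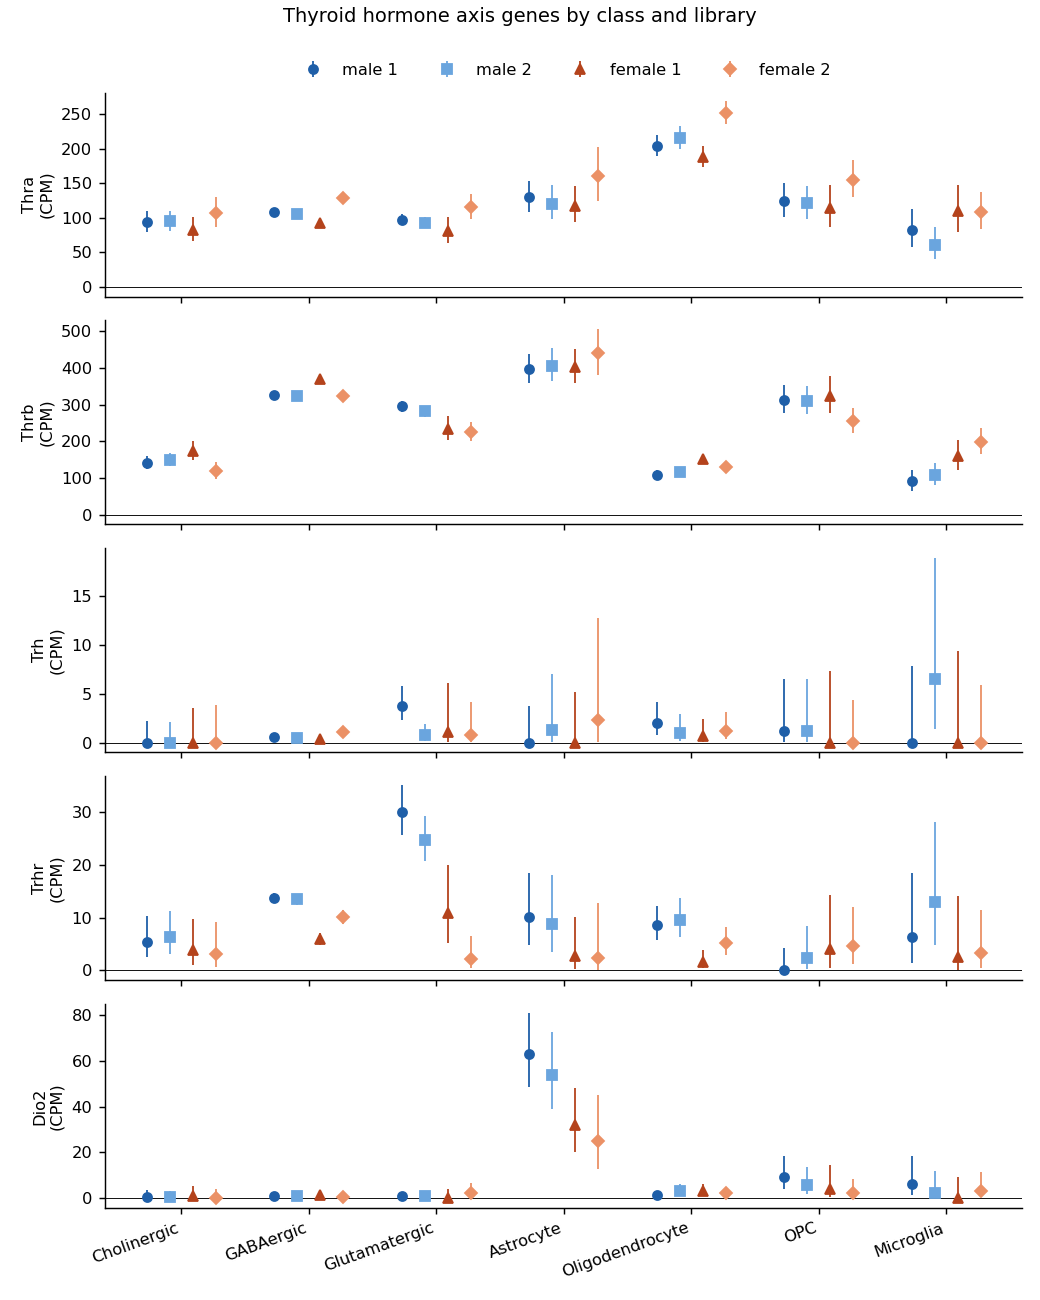
Level of the 5 genes in each of 7 classes, in CPM of the class sum, with 1 point per library (males blue, females orange) and bars for exact Poisson 95% intervals, which cover counting error only. Thra is highest in oligodendrocytes, Thrb is high in 4 classes and low in 3, Dio2 stands out in astrocytes and Trh is near 0 in every class.

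Among the classes, Dio2 was highest in astrocytes. Dio2 (ENSMUSG00000007682) lies on the minus strand of chromosome 12 from 90724552 to 90738438 (GRCm38). Astrocytes held 63.3, 54.0, 32.2 and 25.1 CPM in male 1, male 2, female 1 and female 2, from 63, 43, 23 and 11 UMIs. OPCs came next with 9.37, 5.82, 3.98 and 2.35 CPM, and GABAergic nuclei averaged 0.99 ± 0.38 CPM (SD, n = 4). Astrocytes exceeded OPCs by 3.01 ± 0.39 on the log2 scale (SE; edgeR adjusted p = 1.48e-07), and no library overlapped.

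The fraction of astrocyte nuclei with a Dio2 UMI was 17.8% and 17.3% in male libraries, against 8.68% and 6.36% in female libraries. After every nucleus was thinned to 2000 UMIs the shares were 12.2% and 11.5% in male libraries and 7.73% and 8.75% in female libraries, and 6 and 3 male and 61 and 93 female astrocyte nuclei were too shallow to enter. Oligodendrocytes, taken as a class that should lack the gene, had thinned shares of 0.648% and 0.570% in male libraries and 1.04% and 0.222% in female libraries, with 398 and 428 male and 721 and 936 female oligodendrocyte nuclei too shallow to enter. Astrocyte nuclei held a median of 3527 and 3247 UMIs in male libraries and 2479.5 and 1951 in female libraries, and oligodendrocytes 2155, 2091, 1824 and 1499 in the same order. The thinned astrocyte share was thus above that background in each library. Nuclei in no class carried 31.0% and 31.8% of all Dio2 UMIs in male libraries and 53.4% and 50.6% in female libraries, and the classed astrocytes carried 12.2% to 18.3%. GABAergic nuclei, the most numerous class, held 64, 62, 24 and 9 Dio2 UMIs in male 1, male 2, female 1 and female 2, close to the 63, 43, 23 and 11 of astrocytes. Those were 18.6%, 20.1%, 12.7% and 10.8% of the gene's UMIs. Nuclei that met several classes carried 25.8% and 26.6% in male libraries and 14.8% and 8.43% in female libraries. Classed astrocytes were thus highest in level among the classes and held a minority of Dio2 UMIs. How many of the nuclei in no class or in several classes were astrocytes was not tested.

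Cyclic AMP is known to induce Dio2 through a response element close to its start in human, and letters of such an element stand in the mouse reference. The 88-base stretch below is from RefSeq (GRCm38.p6, chr12:90739086-90739173, minus strand, 5′ to 3′), with the palindrome TGACGTCA in capitals. It lies 95 bases before the start that RefSeq gives, which is upstream of the gene span given above, and is shown because this element is a known site of the gene's control.
Dio2: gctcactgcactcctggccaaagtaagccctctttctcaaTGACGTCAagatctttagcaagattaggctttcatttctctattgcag
The palindrome reads the same on both strands and was found in 1.79% of 32851 RefSeq windows that run from 250 bases before to 50 after a gene's start. RefSeq windows were at hand for 3 of the 5 genes, and neither this palindrome nor the Trh element given later was in the 2 Thrb windows.

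Trhr was low in level and was highest in glutamatergic nuclei of the males. Trhr (ENSMUSG00000038760) lies on chromosome 15 from 44196135 to 44235912 on the plus strand. Glutamatergic nuclei held 30.1, 24.7, 10.9 and 2.23 CPM in male 1, male 2, female 1 and female 2, from 161, 135, 10 and 3 UMIs. GABAergic nuclei held 13.8, 13.5, 5.92 and 10.1 CPM. Female 2 was the only library in which the GABAergic level was the higher of the pair.

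Glutamatergic nuclei exceeded GABAergic nuclei by 0.73 ± 0.23 on the log2 scale (SE; edgeR adjusted p = 0.0382). Of the glutamatergic nuclei, 910 had at least 2 UMIs of Slc17a6 and none of Slc17a7, and 59 the reverse. The Slc17a6 nuclei held 32.7 and 27.0 CPM of Trhr in male libraries, against 11.5 and 0.928 CPM in female libraries. Trhr in oligodendrocytes stood at 8.54, 9.51, 1.65 and 5.14 CPM, so the order of the libraries was nearly that of the GABAergic class.

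**Figure D2:**
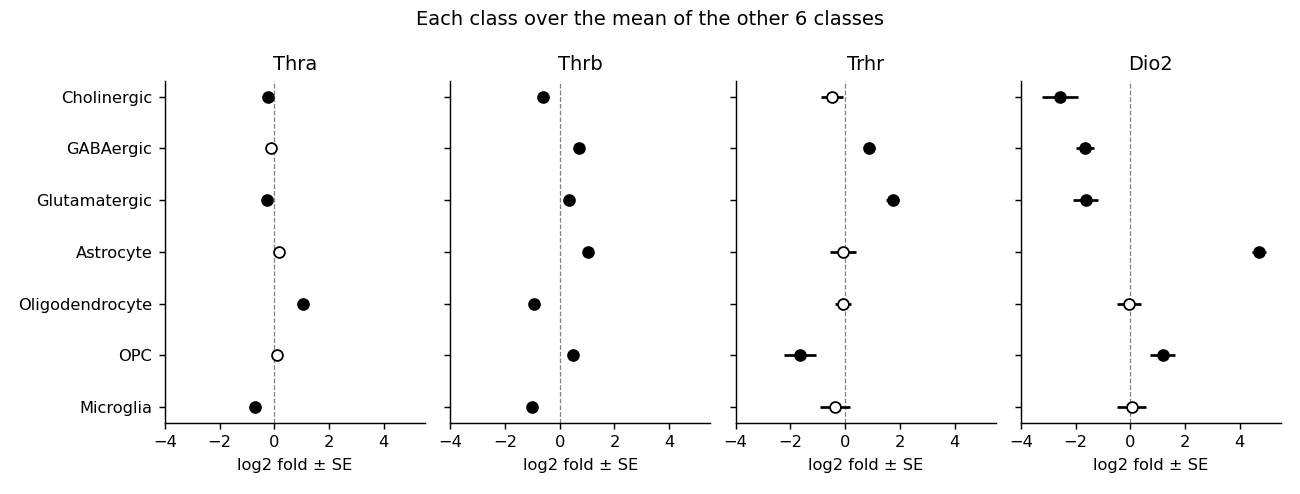
Log2 fold ± SE of each class over the mean of the other 6 classes for the 4 genes that entered the fit, from edgeR with library as block, where filled points passed an adjusted p of 0.05. Dio2 in astrocytes, at 4.69, lies farthest from 0.

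Trh itself was close to absent. Trh (ENSMUSG00000005892) is a short gene on the minus strand of chromosome 6, from 92242061 to 92244650. Cholinergic nuclei had 0 UMIs in all 4 libraries, which allows up to 1.81, 1.72, 2.85 and 3.14 CPM in male 1, male 2, female 1 and female 2 at 3 counts per library. GABAergic nuclei had 31, 27, 6 and 23 UMIs, or 0.548, 0.501, 0.311 and 1.08 CPM, and oligodendrocytes had 1.99, 0.984, 0.658 and 1.21 CPM. The GABAergic level was below that of oligodendrocytes in every library.

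A few nuclei stood out. Glutamatergic nuclei of male 1 had 20 Trh UMIs in 13 nuclei, 5 of which had at least 2 and 1 of which had 4. Male 2, with 4 UMIs, and the females, with 1 each, had no glutamatergic nucleus with 2 or more. The highest count in any nucleus of 1 class was 7, in a GABAergic nucleus of female 2. A male 2 nucleus in no class and a female 2 nucleus in several classes each reached 9. Nuclei in no class carried 23.5%, 25.0%, 38.1% and 47.4% of Trh UMIs in male 1, male 2, female 1 and female 2. Those in several classes carried 18.6%, 26.25%, 19.0% and 14.5%. Trh did not pass the filter on low counts in the class and subclass fits, so no class fold is given for it.

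The Trh promoter is printed because its element at this site, known in rodents as a place where both the cyclic AMP factor CREB and the thyroid hormone receptors act, is the feedback point of the axis. The stretch is from RefSeq (GRCm38.p6, chr6:92244660-92244747, minus strand, 5′ to 3′), and the capitals mark TGACCTCA, 57 bases before the start.
Trh: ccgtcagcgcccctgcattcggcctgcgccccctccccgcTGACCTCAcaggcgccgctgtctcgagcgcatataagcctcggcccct
TGACCTCA or its reverse complement TGAGGTCA was present in 2.17% of the same windows.

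To set the classes against each other in 1 test, each class was compared with the mean of the other 6, with library as block. Of 28 tests of 4 genes in 7 classes 19 were called, beside 46.4% of all gene and class tests, a background that is itself high. The share of all genes called was 43.5% for cholinergic, 57.2% for GABAergic, 50.4% for glutamatergic, 47.6% for astrocyte, 50% for oligodendrocyte, 32.9% for OPC and 43% for microglia nuclei. Dio2 rose in astrocytes by 4.69 ± 0.26 (edgeR adjusted p = 2.54e-16). It was lower in cholinergic nuclei at -2.57 ± 0.67 (adjusted p = 0.00237), GABAergic nuclei at -1.65 ± 0.34 (adjusted p = 0.000106) and glutamatergic nuclei at -1.63 ± 0.46 (adjusted p = 0.00394).

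The receptors moved less. Thrb was higher in astrocytes by 1.03 ± 0.10, in GABAergic nuclei by 0.71 ± 0.09, in OPCs by 0.47 ± 0.11 and in glutamatergic nuclei by 0.33 ± 0.10. It was lower in cholinergic nuclei at -0.59 ± 0.11, oligodendrocytes at -0.94 ± 0.11 and microglia at -1.01 ± 0.13, and the edgeR adjusted p of these 7 folds was at most 0.00612. Thra was higher in oligodendrocytes by 1.04 ± 0.06 (edgeR adjusted p = 2.24e-15) and lower in microglia at -0.71 ± 0.10 (adjusted p = 6.28e-07). In oligodendrocytes, then, the 2 receptor genes lay on opposite sides of the mean of the other classes.

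Trhr was higher in glutamatergic nuclei by 1.74 ± 0.24 (edgeR adjusted p = 2.42e-07) and in GABAergic nuclei by 0.89 ± 0.21 (adjusted p = 0.000518), and the GABAergic fold was 1.51 ± 0.25 once Scrublet-scored doublets were removed. Smaller folds were those of Thra in cholinergic nuclei, at -0.24 ± 0.08 (edgeR adjusted p = 0.0166), and in glutamatergic nuclei, at -0.28 ± 0.07 (adjusted p = 0.00237). In OPCs Dio2 was at 1.18 ± 0.47 (edgeR adjusted p = 0.0497) and Trhr at -1.64 ± 0.57 (adjusted p = 0.0262), on 0 to 8 UMIs per library. Several of these calls did not hold when 1 library was left out. Without male 1 the adjusted p was 0.0667 for Thra in cholinergic nuclei, 0.0837 for Dio2 and 0.136 for Thrb in glutamatergic nuclei, and 0.330 for Dio2 and 0.298 for Trhr in OPCs. Without male 2 it was 0.0587 for Dio2 and 0.0906 for Thrb in glutamatergic nuclei, and 0.165 for Dio2 and 0.226 for Trhr in OPCs (edgeR). The Thra call in cholinergic nuclei was also lost without female 1 (adjusted p = 0.0855) and without female 2 (adjusted p = 0.0623).

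Reads from a gene and from a partner on the other strand cannot be told apart unless counting used strand, a setting not given in the sources used here. Thra overlaps Nr1d1, a clock repressor on the other strand, over 1075 bases. Nr1d1 was higher in astrocytes by 2.58 ± 0.27 (edgeR adjusted p = 1.37e-09) and lower in cholinergic nuclei at -1.77 ± 0.45 (adjusted p = 0.00185). In oligodendrocytes, where Thra was highest, Nr1d1 was not called, at -0.44 ± 0.28 (adjusted p = 0.204). Thrb overlaps the antisense gene Gm48321, and Dio2 overlaps Gm26512, also on the other strand.

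Within the GABAergic class, nuclei were split by UMIs of Drd1, Drd2, Tshz1, Moxd1 or Sst, which left 11206 nuclei with none of the 5. Thrb separated these subclasses. Moxd1 nuclei held 551, 571, 624 and 619 CPM in male 1, male 2, female 1 and female 2, and Tshz1 nuclei held 245, 215, 151 and 150 CPM. Nuclei with none of the 5 markers lay between them, at 315, 314, 371 and 319 CPM. Moxd1 nuclei were above every other subclass in 3 of the 4 libraries, and in female 1 the Drd1 nuclei, only 18 in number, were at 656 CPM.

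Against the mean of the other subclasses, Thrb was higher in Moxd1 nuclei by 0.86 ± 0.10 (edgeR adjusted p = 2.09e-09) and lower in Tshz1 nuclei at -0.95 ± 0.11 (adjusted p = 4.42e-09). With Thra in Drd2 nuclei, at 0.23 ± 0.07 (adjusted p = 0.0139), these were 3 of 18 tests called, against 10.4% of all gene and subclass tests. Of all genes, 18.8% were called in Moxd1, 11.8% in Tshz1 and 15.3% in Drd2 nuclei. The other shares were 6.59% for Drd1, 3.39% for Sst and 6.54% for nuclei with none of the 5, where no axis gene was called. In the order of levels, Moxd1 nuclei exceeded Drd1 nuclei by 0.52 ± 0.13 (edgeR adjusted p = 0.00345) and Drd2 nuclei exceeded Tshz1 nuclei by 0.69 ± 0.13 (adjusted p = 9.84e-05).

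Thra in Drd2 nuclei stood at 117, 117, 111 and 160 CPM. The fold was small, and it missed the threshold without male 1 (edgeR adjusted p = 0.0804) and without female 2 (adjusted p = 0.0527). Over the 6 subclasses Thra averages ran only between 103 and 126 CPM. Trhr was called in no subclass, and Moxd1 nuclei, with 17.9, 19.95, 8.21 and 7.34 CPM, gave a fold of 0.44 ± 0.21 (adjusted p = 0.154). Drd1 nuclei held 9.94, 18.6, 21.9 and 17.4 CPM of Trhr, with only 3 UMIs behind the female 1 value. Dio2 and Trh did not pass the filter in these sums.

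**Figure D3:**
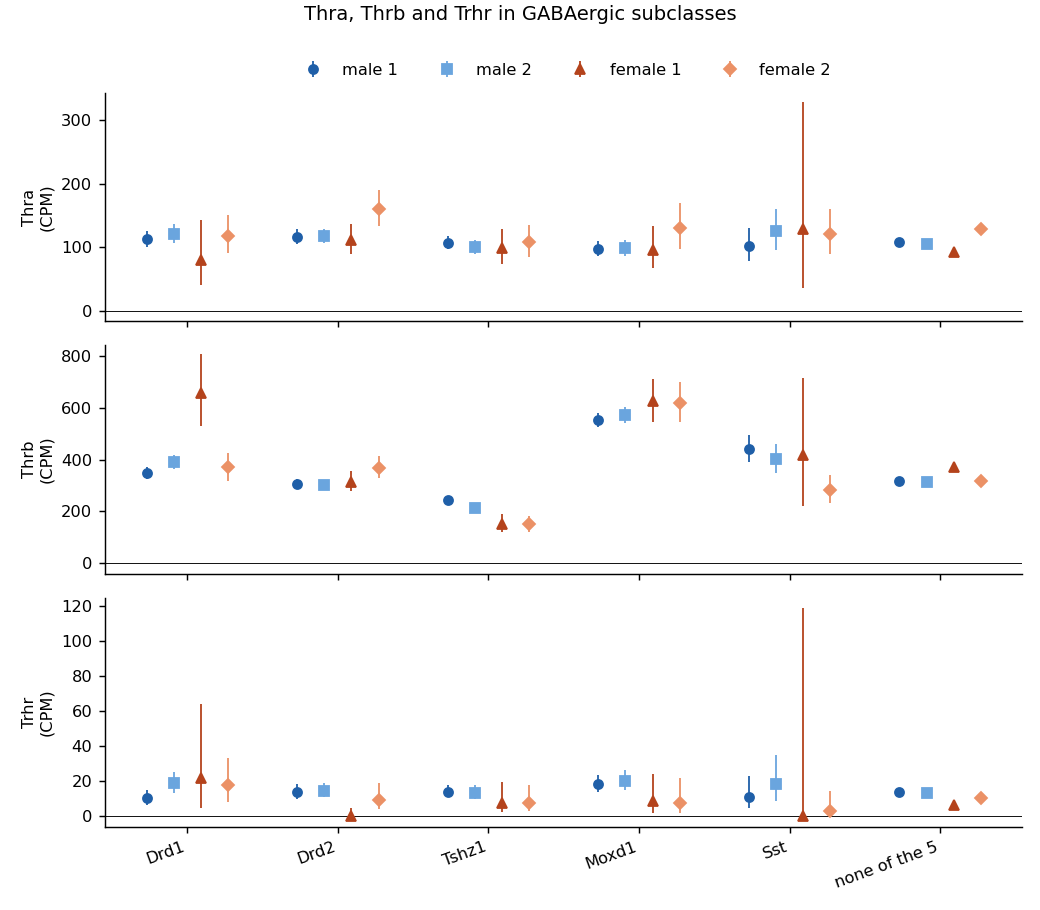
Thra, Thrb and Trhr in 6 subclasses of GABAergic nuclei, in CPM of the subclass sum, 1 point per library with males left of females and exact Poisson 95% intervals for counting error. Thrb is high in Moxd1 and low in Tshz1 nuclei in every library, and the wide bars of female 1 in Drd1 and Sst come from 18 and 5 nuclei.

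Some GABAergic nuclei carried Trhr, and their other genes were read next. Nuclei with at least 1 Trhr UMI numbered 463, 464, 102 and 159 in male 1, male 2, female 1 and female 2, against 3446, 3355, 2984 and 2576 with none. They were deeper, with median UMIs of 15014, 14369.5, 6247.5 and 7431, against 12234, 11727, 5704 and 6070.5 without Trhr. A threshold of 2 UMIs left 9 nuclei in female 1, so that of 1 UMI was chosen after the counts were seen. Besides Trhr, 410 genes differed between these sums, and 2.63% of genes tested were called. The number was 261 without male 1, 164 without male 2 and 253 without female 1. Of the 410, 197 were higher and 213 lower in nuclei with Trhr.

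Cyp19a1, which encodes aromatase and so makes oestrogen from androgen, was 1.32 ± 0.14 higher on the log2 scale in nuclei with Trhr (edgeR adjusted p = 6.95e-07). It stood at 18.4, 13.9, 1.29 and 6.48 CPM in nuclei with Trhr in male 1, male 2, female 1 and female 2, against 6.26, 6.24, 1.19 and 3.22 CPM in nuclei with none. Female 1 had a single Cyp19a1 UMI in the marked nuclei and shows no gap. Glra3, a glycine receptor subunit, held 194, 210, 167 and 153 CPM with Trhr and 137, 137, 108 and 120 CPM without it, a fold of 0.53 ± 0.05 (edgeR adjusted p = 5.74e-07).

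Plce1, a phospholipase C, rose by 0.69 ± 0.07, Sv2c, a synaptic vesicle protein, by 0.48 ± 0.05 and Dpyd, which breaks down pyrimidines, by 0.45 ± 0.05 (edgeR adjusted p at most 6.9e-07). All 3 were higher with Trhr in each of the 4 libraries.

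Among the genes that were lower with Trhr, 3 were named after their values were seen. Kcnmb2, a potassium channel subunit, held 44.7, 42.1, 45.0 and 43.6 CPM in nuclei with Trhr, against 86.6, 88.0, 101 and 93.2 CPM in nuclei with none, a fold of -1.03 ± 0.06 (edgeR adjusted p = 5.43e-11). Vipr2, a receptor for vasoactive intestinal peptide, held 2.93, 4.75, 2.57 and 0.589 CPM with Trhr and 11.6, 12.1, 4.92 and 5.31 CPM without it, a fold of -1.66 ± 0.18 (edgeR adjusted p = 1.55e-06). Sema3c, a guidance protein from the T3 response list below, held 36.2, 29.0, 45.0 and 54.8 CPM with Trhr and 53.3, 54.4, 71.9 and 81.5 CPM without it, a fold of -0.69 ± 0.07 (edgeR adjusted p = 8.14e-07). All 3 were lower with Trhr in each library, with only 2 and 1 Vipr2 UMIs behind the female values.

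Nuclei with Trhr did not differ past the threshold in the receptors, with Thrb at 327, 327, 320 and 296 CPM against 326, 323, 371 and 325 CPM without Trhr, a fold of -0.06 ± 0.05 (edgeR adjusted p = 0.783). Thra gave -0.05 ± 0.05 (adjusted p = 0.874). Trh was not found with its receptor in female libraries, with 1, 6, 0 and 0 UMIs in the marked nuclei of male 1, male 2, female 1 and female 2, against 30, 21, 6 and 23 in the others.

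The male to female comparison is the one the study set out to make, and no axis gene passed it in any class. Over 21 tests of the 5 genes in 7 classes, 0 were called by the edgeR quasi-likelihood test and 0 by DESeq2, beside 35 of 80543 tests of all genes (0.0435%) with edgeR. At an unadjusted p under 0.05, 6 of the 21 tests passed, beside 11.8% of all tests. By class, 0.0498% of genes were called in cholinergic, 0.00545% in GABAergic, 0.0631% in glutamatergic, 0.0555% in astrocyte, 0.023% in oligodendrocyte, 0.095% in OPC and 0.0503% in microglia nuclei. In the 4 subclasses with enough nuclei, 0 of 14 tests were called and 3 had an unadjusted p under 0.05. Of the tests of all genes in these subclasses, 13.3% had an unadjusted p under 0.05. There 0.0629% of genes were called in Drd2, 0.0446% in Tshz1, 0.294% in Moxd1 and 0% in nuclei with none of the 5.

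The values with the widest gap were those of Trhr. Its glutamatergic fold, male over female, was 2.26 ± 0.56 on the log2 scale (edgeR adjusted p = 0.261), and both males lay above both females. The females themselves differed, at 10.9 and 2.23 CPM from 10 and 3 UMIs. In GABAergic nuclei the fold was 0.86 ± 0.28 (adjusted p = 0.297), in oligodendrocytes 1.49 ± 0.57 (adjusted p = 0.446) and in Moxd1 nuclei 1.32 ± 0.52 (adjusted p = 0.325). Trhr was higher in both males than in both females in 6 of the 7 classes, OPCs being the exception, and glial classes are among the 6.

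The share of GABAergic nuclei with a Trhr UMI was 11.8% and 12.1% in male libraries against 3.31% and 5.81% in female libraries. Thinned to 2000 UMIs per nucleus it was 2.43% and 2.28% in male libraries against 1.09% and 1.85% in female libraries, and oligodendrocytes gave 1.30% and 0.760% in male libraries and 0.414% and 1.33% in female libraries. Of GABAergic nuclei, 2 and 2 in male libraries and 53 and 34 in female libraries were too shallow to be thinned. GABAergic nuclei had medians of 12427 and 11976 UMIs for the males and 5733 and 6133 UMIs for the females. In glutamatergic nuclei the thinned shares were 4.49% and 4.62% in male libraries, against 2.08% and 1.27% in female libraries, and those of female 2 were at the background of its oligodendrocytes.

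Dio2 in astrocytes had a fold of 1.06 ± 0.33, male over female (edgeR adjusted p = 0.406), and the libraries of the sexes did not overlap. With 1 more marker UMI asked of each class the fold was 0.54 ± 0.47, and with nuclei thinned it was also 0.54 ± 0.47. Thinned nuclei were classed anew for that fit, with 96 astrocyte nuclei in male 1 and 114 in female 1, against 219 and 242 before. The nuclei in the class thus changed along with depth. Ependymal and tanycyte markers, a list of 4 genes of other Dio2-bearing cells, summed to 2.01 and 41.4 CPM in the astrocytes of the males against 5.60 and 11.4 CPM in those of the females, with 1, 4, 1 and 1 of the 4 genes seen. Their part in the Dio2 value was not tested.

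Thrb leaned different ways by class. It was 0.37 ± 0.12 higher in male glutamatergic nuclei (edgeR adjusted p = 0.312) and 0.66 ± 0.17 higher in male Tshz1 nuclei (adjusted p = 0.337), and -0.86 ± 0.26 in microglia (adjusted p = 0.323). Glutamatergic nuclei with Slc17a6 and no Slc17a7 held 228, 235, 229 and 210 CPM of Thrb in male 1, male 2, female 1 and female 2. Those with Slc17a7 and no Slc17a6 held 680, 651, 0 and 347 CPM, from only 26, 18, 1 and 14 nuclei. Their part in the glutamatergic Thrb fold was not tested. In GABAergic nuclei the Thrb fold was -0.02 ± 0.15. Thra folds lay between -0.09 and 0.03 in the 6 classes other than microglia, where the fold was -0.61 ± 0.29 (adjusted p = 0.490).

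A test of whether the male over female fold of a class differs from the mean fold of the other classes called Thrb in microglia, at -0.89 ± 0.22 (edgeR adjusted p = 0.0374), as 1 of 28 tests of the axis genes. The shares of all genes called in this test were 0.858% in microglia, 0.0887% in cholinergic, 0.037% in GABAergic, 0.126% in glutamatergic, 0.325% in astrocyte, 1.1% in oligodendrocyte and 0.2% in OPC nuclei. All 5 oligodendrocyte markers were detected in the microglia of every library and summed to 242 and 287 CPM in male libraries against 1002 and 596 CPM in female libraries. The 3 GABAergic markers summed there to 185 and 188 CPM in male libraries against 173 and 331 CPM in female libraries, and their part in the Thrb value was not tested. The difference was -0.28 ± 0.20 (edgeR adjusted p = 0.857) with 1 more marker UMI asked of each class and -0.43 ± 0.25 (adjusted p = 0.758) after Scrublet removal. With nuclei thinned and classed anew it was -0.80 ± 0.38 (adjusted p = 0.389). It was also not called without male 1 (adjusted p = 0.509), without male 2 (adjusted p = 0.213) or without female 2 (adjusted p = 0.422).

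Trhr in glutamatergic nuclei had an interaction of 1.51 ± 0.57, which was not called (edgeR adjusted p = 0.491). Trhr in OPCs, on 0 to 4 UMIs per library, had the widest value, -3.26 ± 1.24 (adjusted p = 0.438). Thrb in glutamatergic nuclei was at 0.52 ± 0.14 (adjusted p = 0.150), in sums that held the Slc17a7 nuclei given above. No other axis gene passed in a class.

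**Figure D4:**
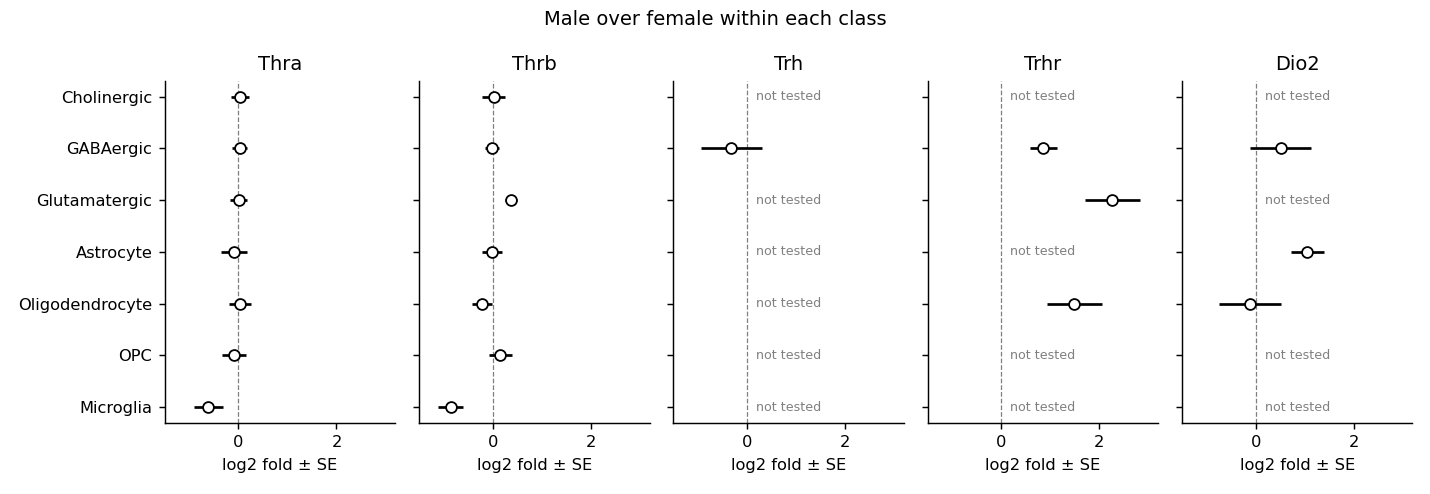
Log2 fold ± SE, male over female, of each gene in each class from edgeR on 2 male and 2 female library sums, where open points did not pass an adjusted p of 0.05. The glutamatergic Trhr fold, 2.26, lies farthest from 0, and the Thra folds sit near 0 outside microglia.

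These sex values depended on which libraries entered. With 1 female left out, the other female gives no spread of its own, so only folds are given for those fits. The glutamatergic Trhr fold was 3.74 ± 0.50 without female 1 and 1.35 ± 0.39 without female 2. Thrb in GABAergic nuclei took opposite signs, at 0.23 ± 0.04 without female 1 and -0.15 ± 0.04 without female 2. Thra there was -0.06 ± 0.05 without female 1 and 0.23 ± 0.05 without female 2, and Dio2 was 1.64 ± 0.46 and -0.10. In all, 13 of 23 axis tests had opposite signs in these fits. The share over all genes was not computed, so the count does not set the axis genes apart. A lone female is assumed in these fits to vary like the males, which were close to each other.

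The genes around the 5 were read from 6 lists, and each count is to be read beside the share of all genes called in that class, given above (32.9% in OPCs to 57.2% in GABAergic nuclei). Transporters bring hormone into cells, and 5 of 6 were tested in the class fit. In astrocytes 2 were higher and 3 lower (median log2 fold -0.87, against -0.05 over all genes). Slco1c1, which carries T4, was higher there by 5.05 ± 0.16 (edgeR adjusted p = 6.14e-23), at 292 and 305 CPM in male libraries against 199 and 176 CPM in female libraries. Slc16a10, which carries aromatic amino acids and thyroid hormone, was at -3.53 ± 0.51 in astrocytes and 2.57 ± 0.23 in microglia.

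Slc7a8, an amino acid exchanger that also carries thyroid hormone, was higher in microglia by 3.27 ± 0.16 (edgeR adjusted p = 3.24e-18). Oligodendrocytes had 0 transporters higher and 4 lower, GABAergic nuclei 2 higher and 1 lower, glutamatergic nuclei 2 and 1, cholinergic nuclei 1 and 2, OPCs 1 and 1, and microglia 2 and 0. The 3 of 5 called in GABAergic and in glutamatergic nuclei sit near the 57.2% and 50.4% of all genes called there, and the 2 of 5 in OPCs and in microglia near 32.9% and 43%.

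Of the 4 deiodinase and binding genes, none passed the filter in the class fit. Dio1, which activates hormone in liver, averaged 0.013 CPM in GABAergic nuclei and 0 CPM in the other classes. Dio3, the inactivating deiodinase, averaged at most 1.34 CPM in a class. Crym, a T3-binding protein of the cytosol, was tested in subclasses, where it was higher in Sst nuclei by 1.44 ± 0.34, Drd2 nuclei by 1.41 ± 0.19 and Drd1 nuclei by 0.79 ± 0.24, and lower in Moxd1 nuclei at -2.93 ± 0.36 (edgeR adjusted p at most 0.0358). Moxd1 nuclei, with the highest Thrb, averaged 1.63 CPM of Crym, against 26.2 CPM in Drd2 nuclei.

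Of 13 receptor partners and coregulators, 12 were tested, and oligodendrocytes had 6 higher and 2 lower. Astrocytes and microglia had 4 higher each, with 2 and 1 lower, while GABAergic nuclei had 2 higher and 4 lower and glutamatergic nuclei 1 higher and 5 lower. Rxrg, a retinoid X receptor that pairs with THRA and THRB, was higher in GABAergic nuclei by 1.38 ± 0.13 and lower in astrocytes at -1.59 ± 0.37. Ncoa1, a coactivator, was higher in astrocytes by 1.06 ± 0.06, and Ncoa3, another coactivator, in microglia by 1.55 ± 0.12 (edgeR adjusted p at most 0.000648 for these 4 folds). Cholinergic nuclei had 1 higher and 3 lower, and OPCs 2 and 1. The counts of called genes, 6 of 12 in GABAergic and in glutamatergic nuclei, 6 in astrocytes and 5 in microglia, sit near the shares of all genes called there, 57.2%, 50.4%, 47.6% and 43%. The count in oligodendrocytes, 8 of 12, stands beside 50%.

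The next list held 8 genes, of which 7 were tested. Its enzymes cut TRH from its precursor, amidate it or break it down, and it also holds Trhr2, which encodes another TRH receptor. Glutamatergic nuclei had 4 higher and 2 lower, with Trhde, the ectoenzyme that degrades TRH, higher by 2.01 ± 0.12, Pcsk1, a prohormone convertase, by 1.81 ± 0.12, and Pcsk2, another convertase, by 1.30 ± 0.09 (edgeR adjusted p at most 1.54e-13). These enzymes process other peptides as well, and Trh itself was near 0 in the same nuclei. Cholinergic nuclei had 4 higher and 1 lower, GABAergic nuclei 2 and 2, astrocytes 1 and 5, OPCs 1 and 3, oligodendrocytes 0 and 5, and microglia 0 and 4. All genes were called at 50.4% in glutamatergic, 43.5% in cholinergic and 57.2% in GABAergic nuclei, and the 4 of 7 called in GABAergic nuclei sit near that share. The gene higher in astrocytes was Cpe, a carboxypeptidase, at 2.81 ± 0.08 (edgeR adjusted p = 1.41e-24).

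Of 8 genes of Gq signalling below TRHR, 7 were tested. Cholinergic nuclei had 4 higher and 1 lower, GABAergic nuclei 3 and 3, glutamatergic nuclei 3 and 1, OPCs 3 and 0, astrocytes 2 and 1, microglia 2 and 2, and oligodendrocytes 1 and 5. The 4 of 7 called in glutamatergic nuclei and the 3 of 7 in astrocytes and in OPCs sit near the shares of all genes called, 50.4%, 47.6% and 32.9%. Itpr1, the receptor for inositol trisphosphate, was higher in GABAergic nuclei by 0.80 ± 0.08 and in glutamatergic nuclei by 0.58 ± 0.09 (edgeR adjusted p at most 1.12e-06), the classes in which Trhr was also higher. The list as a whole did not follow Trhr, with a median of -0.01 in GABAergic nuclei. Cholinergic nuclei had the most genes higher, and Trhr was not called there, at -0.48 ± 0.40 (edgeR adjusted p = 0.354).

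The last list held 12 genes that respond to T3 in rodent brain or cultured brain cells, of which 9 were tested. Astrocytes had 3 higher and 6 lower, with a median of -1.23 against -0.05 over all genes. The higher genes were Aldh1a1, a retinoic acid synthase, at 4.55 ± 0.19, Hr, a corepressor that T3 induces, at 3.59 ± 0.38, and Klf9, a T3-induced transcription factor, at 2.22 ± 0.11 (edgeR adjusted p at most 9.59e-10). Klf9 stood at 144 and 148 CPM in the astrocytes of the males against 193 and 93.7 CPM in those of the females. Hr stood at 19.1 and 5.02 CPM in the male astrocytes and 30.8 and 27.4 CPM in the female astrocytes, so it and Dio2 did not order the libraries alike.

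Oligodendrocytes, where Thra was highest, had 4 higher and 1 lower, with Cntn2, an adhesion protein of myelinated axons, at 3.46 ± 0.11, Hr at 2.49 ± 0.31 and Aldh1a1 at 1.54 ± 0.21 (edgeR adjusted p at most 2.02e-07). GABAergic nuclei had 5 higher and 3 lower, with a median of 1.01, among them Sema3c, a guidance protein, at 1.60 ± 0.12, Dgkg, a lipid kinase, at 1.59 ± 0.07, and Aldh1a1 at -2.66 ± 0.25. Glutamatergic nuclei had 4 higher and 2 lower, cholinergic nuclei 3 and 3, OPCs 1 and 4, and microglia 0 and 3. The 5 of 9 called in oligodendrocytes sit near the 50% of all genes called there, and the 3 of 9 in microglia below 43%. Between the sexes none of 268 tests of the 6 lists was called by edgeR, and 6.72% had an unadjusted p under 0.05. The T3 response genes had a fold above 0 for 2 of 7 tested in cholinergic, 1 of 12 in GABAergic, 1 of 9 in glutamatergic, 2 of 6 in astrocyte, 3 of 11 in oligodendrocyte, 2 of 8 in OPC and 0 of 5 in microglia nuclei. Their medians ran from -0.88 in microglia to -0.24 in cholinergic nuclei, with -0.41 in GABAergic nuclei, against -0.04 to 0.00 over all genes. The share of all genes with a fold above 0 was not computed. The same genes recur in classes of the same libraries, so the classes are not separate evidence. The list was not split by whether T3 raises or lowers a gene, and its lean was not tested. Depth and software also changed with sex.

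**Figure D5:**
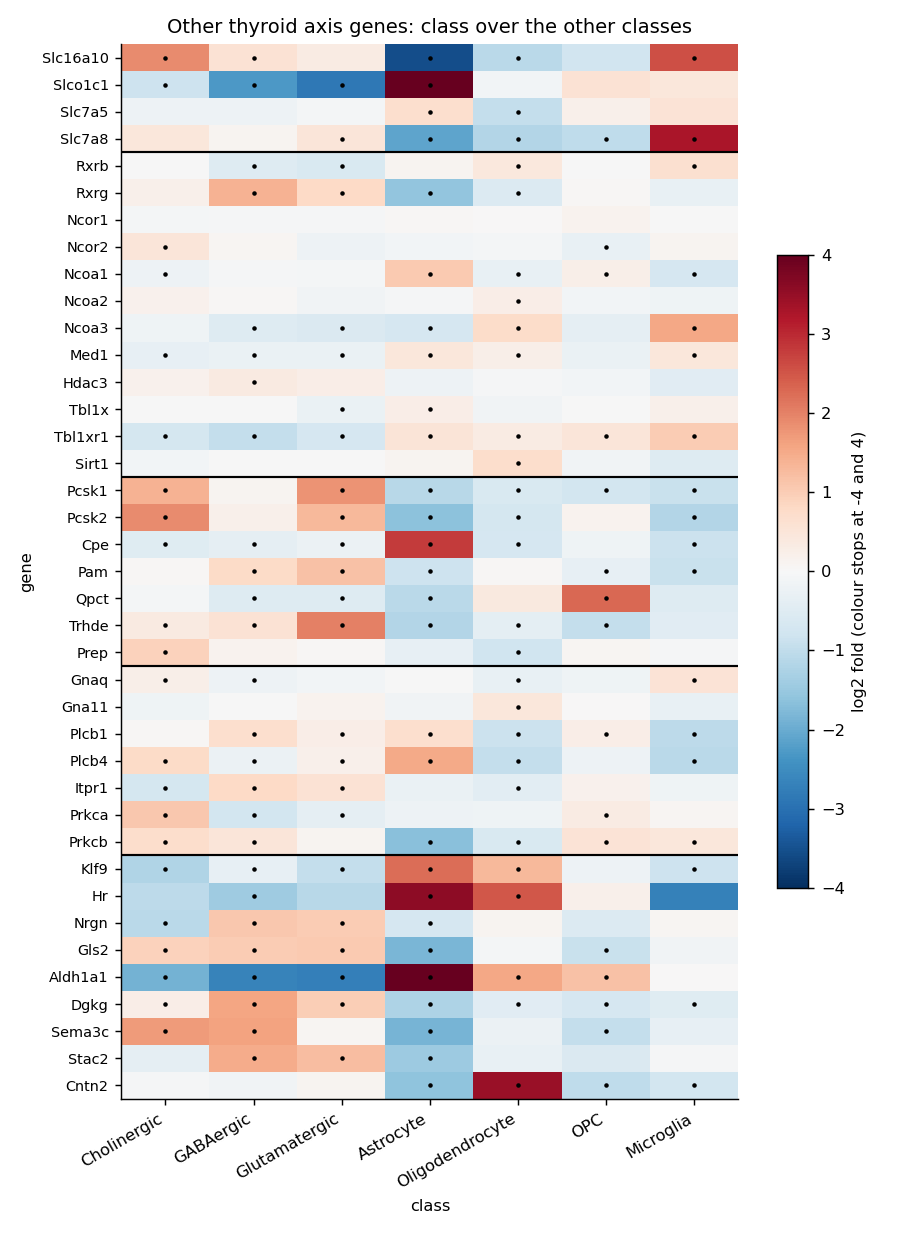
Log2 fold of each class over the mean of the other 6 classes for further genes of the axis, with black points where the edgeR adjusted p was under 0.05 and lines between lists (transporters, receptor partners and coregulators, TRH processing and breakdown, TRH receptor signalling, T3 response). Slco1c1, Aldh1a1, Hr, Cpe and Klf9 are higher in astrocytes, and Slc7a8 and Slc16a10 in microglia.

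The genes whose levels followed each axis gene most closely were read from mean log2(CPM + 1) over 12 populations, the 6 classes other than GABAergic and its 6 subclasses, among 15044 genes. These are descriptions over points that share libraries, with no test. Dio2 was followed by Atp13a4, Ccdc190 and Id3 (Pearson r = 0.98 each). All 3 were high in astrocytes, with Atp13a4 averaging 295 CPM there and 34.6 CPM in OPCs, the next population.

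Thra was followed by Eeig1 and 1700085D07Rik (r = 0.96 each) and Dmpk (r = 0.92), all highest in oligodendrocytes, with Eeig1 averaging 117 CPM there. Thrb was followed by Gm48321 (r = 0.91), which is the antisense gene that overlaps it, then by Gm44151 (r = 0.89) and Gm50138 (r = 0.87). Gm48321 averaged 60.4 CPM in Moxd1 nuclei and 11.02 CPM in Tshz1 nuclei, and among the 6 subclasses Thrb too was highest in Moxd1 and lowest in Tshz1 nuclei. Trhr was followed by Oprk1, the kappa opioid receptor (r = 0.89), Skap1 and Pcmt1 (r = 0.88 each). For Trh the closest were Ndufaf2 (r = 0.87), Col16a1 (r = 0.86) and Seh1l (r = 0.83), over Trh levels that were near 0 throughout.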

How the data were processed

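For each of 4 libraries the authors deposited a sparse matrix of UMI counts per gene and barcode, with its gene and barcode lists. Cell Ranger 6.0.1, Seurat 5 and mm10 are named, per the submitters' processing notes. The versions that wrote each matrix, per the file headers, were 9.0.1 (both males), 7.0.0 (female 1) and 7.2.0 (female 2). The labels' protocols name v3 reagents and a v2 protocol of the 10x Genomics 3′ assay for every library, with the version used per library and strand use not given in the sources used here. The deposited counts summed to 158132452 and 144035342 UMIs for male 1 and male 2 and to 53098268 and 53679351 UMIs for female 1 and female 2.

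Genes were the 31899 listed in all libraries. Nuclei with 500 to 8000 genes and under 5% mitochondrial UMIs were kept and classed by raw UMIs of Chat and Slc5a7, otherwise Gad1 and Gad2 or Slc17a6 and Slc17a7, Gja1 and Aqp4, Mog and Mag, Pdgfra and Cspg4, or Inpp5d and Csf1r, with at least 2 UMIs of a pair. Subclass thresholds were 2 UMIs for Drd1, Drd2 and Moxd1 and 3 for Tshz1 and Sst. GABAergic nuclei that met several subclass criteria, 82, 69, 10 and 16 in male 1, male 2, female 1 and female 2, were set aside. The main sums keep possible doublets, and removing the highest Scrublet scores (scanpy 1.11.5, 0.8% per 1000 barcodes) is an alternative.

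Counts were summed per library and class and divided by the sum's total to give CPM. Tests used edgeR 4.0.16 in R 4.3.3 (quasi-likelihood, TMM, filterByExpr, two-sided, Benjamini-Hochberg at 0.05 over all genes), with library as block between classes or subclasses and sex alone within a class. Subclass sums under 20 nuclei stayed in the subclass fit. Intervals of 95% are exact (Poisson, Clopper-Pearson) and, like the floor of 3 counts, cover counting error only.

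Replicate numbers name libraries and do not pair males with females. The 5 genes and the lists were chosen with earlier results of these data known. Named genes were the 5, the 3 whose pattern was most like each, the 5 with the smallest p among those higher in nuclei with Trhr, the 3 called genes with the largest folds in a list and contrast, and Nr1d1. Genes from the lists that are given only as levels, and the marker and overlapping genes, were named for those checks. Counts and sums cover whole lists, and values of some list and marker genes are not reported here. The edgeR steps were tested on simulated data. Coordinates are from GENCODE vM21 (GRCm38). The alternatives were other size factors, DESeq2 1.42.0, no filter, thinning to 2000 UMIs, 1 more marker UMI, Scrublet removal, a replicate block and leaving out each library. For the thinned fits nuclei were classed anew on their thinned UMIs, while the thinned shares keep the classes from all UMIs.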

Additional observations from a re-analysis of the deposited data

Results flagged for a closer look

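Thrb in microglia was picked out because its male over female fold differed from the mean fold of the other classes by an interaction test, at -0.89 ± 0.22 on the log2 scale (edgeR adjusted p = 0.0374). The levels were 90.6 and 108 CPM in male libraries against 160 and 198 CPM in female libraries, from 43 and 50 UMIs against 63 and 124. The difference was -0.28 ± 0.20 (adjusted p = 0.857) with 1 more marker UMI asked of each class and -0.43 ± 0.25 (adjusted p = 0.758) after Scrublet removal. It was -0.80 ± 0.38 (adjusted p = 0.389) with nuclei thinned to 2000 UMIs and classed anew. Without male 1, male 2 or female 2 the adjusted p was 0.509, 0.213 and 0.422, and without female 1 it was 0.00379.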

How the results depend on the processing

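No called class or subclass fold of the 5 genes changed sign between the settings run, nor did the 6 sex folds with an unadjusted p under 0.05. Other sex folds did: 13 of 23 axis tests took opposite signs without female 1 and without female 2. The share over all genes was not computed. Among the 13 were Thrb in GABAergic nuclei (0.23 and -0.15, -0.02 at first) and Dio2 there (1.64 and -0.10, 0.51 at first). The 35 sex calls over all genes and classes became 1477 with DESeq2, 1388 without the filter on low counts and 53 with nuclei thinned to 2000 UMIs, and 72 to 22899 when 1 library was left out. Sex calls among the axis genes, 0 at first, ran from 0 to 8 when 1 library was left out and were 0 under the other settings. Replicate numbers were not used to pair libraries, and their deviations correlated at r = 0.11 in GABAergic nuclei. With the replicate block 460 sex calls passed over all genes and 0 among the axis genes.

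Between classes, 40205 calls became 14403 with thinned nuclei, and 19 axis calls became 9, and Trhr, with 3 of the calls, no longer passed the filter. Thinned nuclei were classed anew, with 969 GABAergic nuclei in male 1, against 3909 before. Subclass calls, 7365, ran from 3686 to 7461 with 1 library left out (3892 without male 1, 3686 without male 2), and the thinned subclass fit was not run because some sums held no nuclei. The sex by class calls, 370, became 873 without the filter, 70 with 1 more marker UMI, 192 after Scrublet removal and 47 to 832 with 1 library left out. The axis gene calls there, 1 at first, became 2 without the filter, 0 with thinned nuclei, 0 with 1 more marker UMI, 0 after Scrublet removal and 0 to 1 with 1 library left out. The 410 genes that differed with Trhr became 164 to 586 with 1 library left out. The cause of these shifts was not tested. The settings for the sex by class test and for nuclei with Trhr were chosen after seeing the data. Female values of the rarer genes rest on few UMIs (10 and 3 for Trhr in glutamatergic nuclei, 11 for Dio2 in astrocytes of female 2). In GABAergic nuclei the log2 ratio of the 2 males had an SD of 0.263 over genes, and that of the 2 females 1.07.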
